A study of Mus musculus with 8 samples.

Results

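The genes described here are 10 regulators of growth and of mitochondrial supply: Myc, Max and Mxd1 of the MYC network, Esrra (ERR alpha) with the coactivators Ppargc1b (PGC-1 beta) and Pprc1 (PRC), the nuclear factors Nrf1 and Gabpa, and the mitochondrial DNA factors Tfam and Tfb2m. They were taken by gene symbol from a table of 24421 genes. All 10 symbols were found, and all 10 passed the filter on low values (at least 1 CPM, the reads of a gene scaled to the total of its library, in at least 2 libraries), as did 12194 genes in all.

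Poly-A RNA of mouse bone marrow macrophages was sequenced in 4 groups of 2 libraries each, replicates 1 and 2: RBPJ KO cells with TNF, WT cells with TNF, RBPJ KO cells at day 0 and WT cells at day 0. In the RBPJ KO cells, floxed Rbpj was removed by Cre expressed from the LysM (Lyz2) locus, which is active in myeloid cells. TNF was given at 40 ng/ml for 2 days, and the day 0 cells had none. Untreated cells were sampled at day 0 and not at day 2, so effects of TNF and of time in culture cannot be told apart. Rbpj encodes the nuclear factor through which Notch receptors act on genes, and the design asks how its loss changes the response of macrophages to TNF.

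MYC pairs with MAX on DNA to drive genes of ribosome production, nucleotide synthesis and cell growth, and MXD proteins compete for MAX and repress the same sites. ERR alpha is an orphan nuclear receptor that switches on genes of the tricarboxylic acid cycle, electron transport and fatty acid oxidation, and it depends on coactivators of the PGC-1 family. NRF1 and GABPA act on promoters of respiratory chain genes and of TFAM and TFB2M, which carry out transcription of mitochondrial DNA. In the osteoclast lineage, which macrophages can enter, PGC-1 beta and ERR alpha are known in the mouse as regulators of mitochondrial content.

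The libraries held 9855859 to 35653203 reads in genes. Rbpj had 21.4 to 30.0 CPM in RBPJ KO cells with TNF, against 178 to 226 CPM in WT cells with TNF. At day 0 it had 31.8 to 38.9 CPM in RBPJ KO cells and 215 to 216 CPM in WT cells. The log2 difference of RBPJ KO from WT cells was -2.96 with TNF and -2.60 at day 0 (limma adjusted p = 0.0735 and 0.238, and 0.00339 and 0.0264 with the replicate number in the fit). All 10 macrophage-defining markers had reads in every group, with summed levels of 5885 to 11490 CPM over the 8 libraries. The 10 osteoclast markers summed to 18804 to 45864 CPM in RBPJ KO cells with TNF and 4965 to 6579 CPM in WT cells with TNF, against 151 to 248 CPM in RBPJ KO cells and 144 to 220 CPM in WT cells at day 0, where Calcr had no read in WT cells. The 11 neutrophil markers in the table summed to 60.9 to 65.4 CPM, 116 to 219 CPM, 288 to 1063 CPM and 183 to 896 CPM in the same order of groups, with Retnlg at 0 in both groups with TNF. Summed levels over all libraries were 1.09 to 10.5 CPM for B cell, 2.55 to 26.9 CPM for T and NK cell, 33.1 to 369 CPM for erythroid and megakaryocyte, 4.04 to 180.1 CPM for stromal, 0.140 to 5.15 CPM for mast cell and basophil, and 2.83 to 34.5 CPM for dendritic cell markers. The stromal sums lay apart within each group. They were 7.07 and 180.1 CPM in RBPJ KO and 33.2 and 143 CPM in WT cells with TNF. At day 0 they were 4.04 and 161 CPM in RBPJ KO and 5.79 and 119 CPM in WT cells. The part of stromal RNA in the values below was not tested.

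The coactivator gene Ppargc1b stood apart from the other 9 regulators. It rose with TNF in RBPJ KO cells to a level 23.2-fold above day 0 (limma adjusted p = 0.0233). When libraries of the same replicate number were compared with each other, it also rose 5.23-fold in WT cells (adjusted p = 0.00400), and Esrra, whose product works with it, rose 2.25-fold in RBPJ KO cells (adjusted p = 0.00393). Of 23 tested genes that ERR alpha is known to drive, many of them of the Krebs cycle and the respiratory chain, 12 rose with TNF in RBPJ KO cells (3.09% of all genes did). The count was 0 with only the 4 libraries of the comparison. Whether Ppargc1b or Esrra had a part in these values was not tested. Myc, Max, Mxd1, Pprc1, Nrf1, Gabpa, Tfam and Tfb2m passed the limma test on all 8 libraries in none of the 5 comparisons, with or without the replicate number in the fit.

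**Figure D1:**
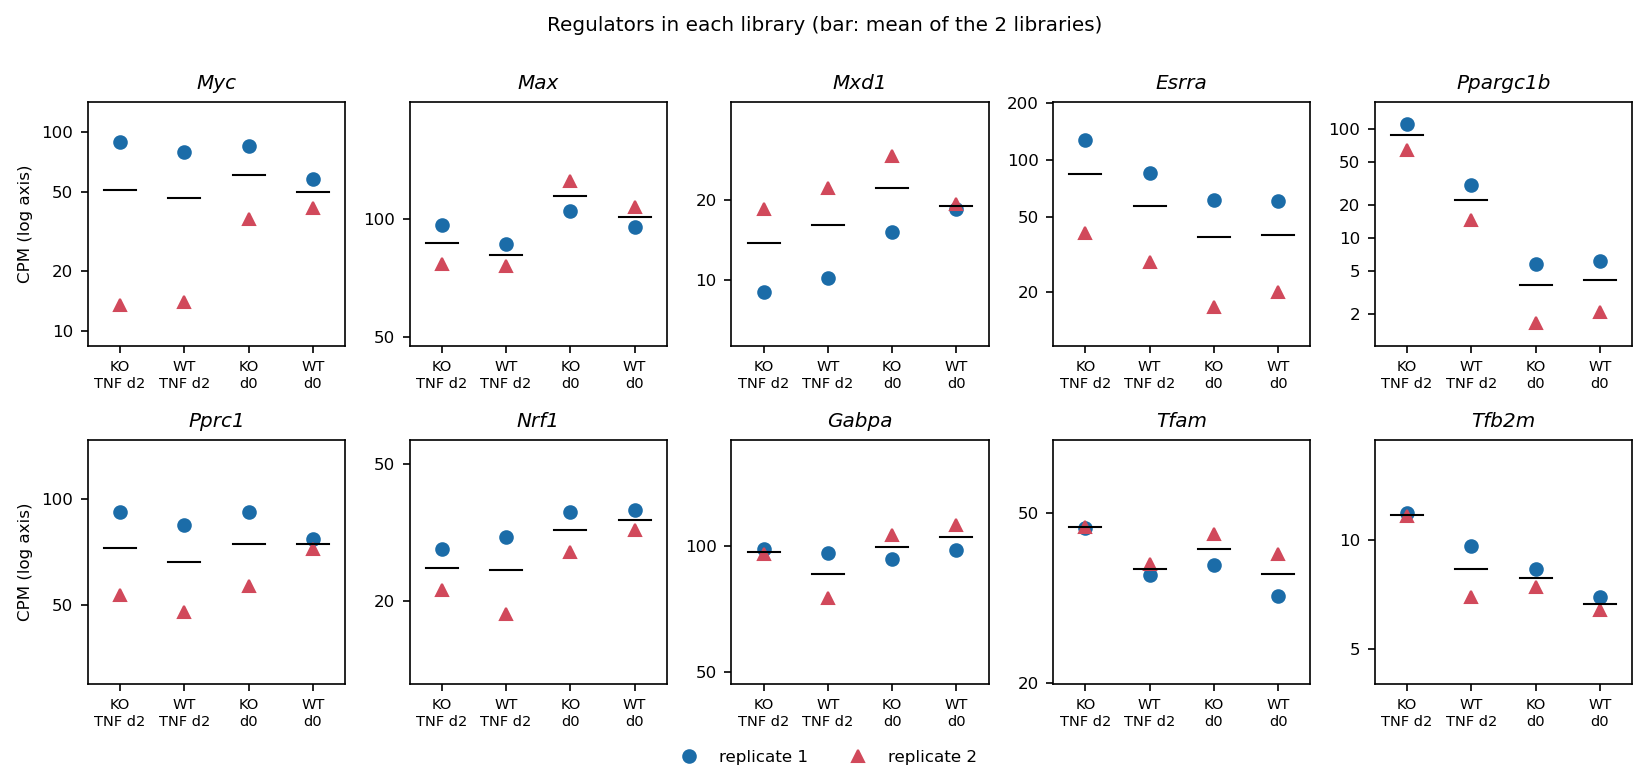
CPM on a log axis of the 10 regulators in each library, by group; blue circles are replicate 1, red triangles replicate 2, and bars the mean of the 2 libraries. Ppargc1b lay at 64.6 to 111 CPM in RBPJ KO cells with TNF and at 14.5 to 30.6 CPM in WT cells with TNF, above the 1.64 to 6.12 CPM of the day 0 libraries.

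Ppargc1b lies at chr18:61298136-61400431 on the minus strand (GRCm38, GENCODE M21). It had 111 and 64.6 CPM in RBPJ KO cells with TNF and 30.6 and 14.5 CPM in WT cells with TNF, against 5.83 and 1.64 CPM in RBPJ KO cells and 6.12 and 2.08 CPM in WT cells at day 0 (replicates 1 and 2). The 4 libraries with TNF were all above the 4 day 0 libraries, and with TNF the RBPJ KO libraries were both above the WT libraries. These rest on 1098 and 1225 reads in RBPJ KO cells with TNF, against 163 and 37 reads in RBPJ KO cells at day 0. In bulk samples such as these, fewer cells of a type and less RNA per cell cannot be told apart.

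With TNF against day 0, the log2 difference of Ppargc1b in RBPJ KO cells was 4.53 ± 0.73 (moderated SE, n = 2 libraries a group), with a 95% interval of 2.79 to 6.28 (limma adjusted p = 0.0233). Entering the replicate number as a block, which compares libraries of the same number, gave 4.53 ± 0.24 (limma adjusted p = 0.000512). Without the block the call was lost when RBPJ KO TNF replicate 1 (adjusted p = 0.0935), RBPJ KO TNF replicate 2 (0.103) or RBPJ KO day 0 replicate 2 (0.123) was left out, and when only the 4 libraries of the comparison were used (0.0727). With the block the call was kept without any 1 library, at adjusted p of up to 0.00552.

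In WT cells, the difference of Ppargc1b with TNF was 2.39 ± 0.73 without the block (limma adjusted p = 0.231) and 2.39 ± 0.24 with it (adjusted p = 0.00400). Within replicate 1 it was 2.23 and within replicate 2 it was 2.54, so both went the same way by like amounts. In RBPJ KO cells the values within the replicates were 4.15 and 4.92.

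With TNF, Ppargc1b was higher in RBPJ KO than in WT cells by 1.98 ± 0.73 on the log2 scale, or 3.95-fold (limma adjusted p = 0.373 without the block and 0.0180 with it). With the block this call was lost without RBPJ KO TNF replicate 2 (adjusted p = 0.110) and without WT TNF replicate 2 (0.160). At day 0 the difference was -0.17 ± 0.73 (limma adjusted p = 1), with a 95% interval of -1.91 to 1.58, or of -0.75 to 0.42 in the blocked fit. The difference between the TNF responses of RBPJ KO and WT cells was 2.15 ± 1.03 without the block (limma adjusted p = 0.964) and 2.15 ± 0.35 with it (adjusted p = 0.104), and it was positive in both replicates. It passed the threshold with the block in DESeq2 (adjusted p = 0.00157), and in limma with the block when RBPJ KO TNF replicate 1 was left out (0.0441). The osteoclast markers given above were also highest in RBPJ KO cells with TNF, and their part in these differences was not tested.

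Esrra lies at chr19:6910977-6921813 on the minus strand. It had 128 and 41.1 CPM in RBPJ KO cells with TNF and 85.4 and 28.6 CPM in WT cells with TNF, against 61.4 and 16.5 CPM in RBPJ KO cells and 60.4 and 19.8 CPM in WT cells at day 0. The groups overlap, because replicate 1 was about 3-fold above replicate 2 in every group. Within each replicate number, the order was the same: RBPJ KO with TNF highest, WT with TNF next, and the day 0 libraries below both. Of its 4387 exon bases, 73 are shared with Trmt112 on the opposite strand and 91 with the miRNA gene Mir6990, and no source used here says whether reads were counted by strand.

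The TNF difference of Esrra in RBPJ KO cells was 1.17 ± 0.94 on the log2 scale without the block (limma adjusted p = 0.590) and 1.17 ± 0.15 with it (adjusted p = 0.00393), with values of 1.05 and 1.29 within the replicates. The blocked call was kept without any 1 library, at adjusted p of up to 0.0487. In WT cells the difference was 0.51 ± 0.15 with the block (95% interval 0.13 to 0.88, limma adjusted p = 0.0884), and it passed the threshold in DESeq2 with the block (adjusted p = 0.0151). Between RBPJ KO and WT cells with TNF it was 0.55 ± 0.15 with the block (limma adjusted p = 0.0782), and at day 0 it was -0.12 ± 0.15 (adjusted p = 0.998). The difference between the TNF responses was 0.66 ± 0.22 with the block (limma adjusted p = 0.195).

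The gap between the replicates was itself large for Esrra. Replicate 1 exceeded replicate 2 by log2 values of 1.62 in RBPJ KO cells with TNF, 1.56 in WT cells with TNF, 1.86 in RBPJ KO cells and 1.58 in WT cells at day 0, or 3.15-fold over the groups (limma replicate term, adjusted p = 0.000513). Of all genes tested, 46.2% passed the threshold for this term, and 803 (6.59%) lay at least 2-fold apart in the same direction in all 4 groups. Of the 10 regulators, 6 passed it: Myc, Esrra, Ppargc1b, Pprc1 and Nrf1 were higher in replicate 1, and Mxd1 was lower. The series states 2 independent experiments, and no source used here says what else set the numbers apart.

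The promoter of Esrra, at chr19:6921759-6922058 (GRCm38.p6, minus strand, from RefSeq: 250 bases before to 50 after the start), is shown because it holds the core letters bound by NRF1, itself among the 10. Capitals mark the NRF1 core CATGCGC, at bases 218 to 224 of the 300.
Esrra: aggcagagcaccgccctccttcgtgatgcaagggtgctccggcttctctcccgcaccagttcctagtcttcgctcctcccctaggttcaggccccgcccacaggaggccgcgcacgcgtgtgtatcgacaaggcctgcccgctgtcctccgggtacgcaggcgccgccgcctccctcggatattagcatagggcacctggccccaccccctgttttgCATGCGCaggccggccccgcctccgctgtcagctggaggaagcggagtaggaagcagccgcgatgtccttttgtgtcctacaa
Promoters of 8 of the 10 members were in the table. Myc and Ppargc1b are named only. The motif CATGCGC, searched on both strands, was in 3.91% of 32851 promoters of this length, and among the members in those of Esrra and Tfb2m. The ERR half-site AAGGTCA, in 4.72% of promoters, was in none of the 8. The E-box CACGTG of MYC and MAX, in 7.15% of promoters, was in that of Max. The letters GTGGGAA bound by RBP-J, in 6.38% of promoters, were in those of Pprc1 and Tfam. All were searched on both strands. The shares are over single promoters, while a member counted if any of its promoters held the letters. The motifs were chosen after the promoters were seen, and a match is a run of letters and no evidence of binding.

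Pprc1, at chr19:46044886-46072915 on the plus strand, encodes PRC, a coactivator of the PGC-1 family that responds to serum in cultured cells. It had 92.1 and 53.4 CPM in RBPJ KO cells with TNF and 84.6 and 48.0 CPM in WT cells with TNF, against 92.0 and 56.9 CPM in RBPJ KO cells and 77.3 and 72.2 CPM in WT cells at day 0. The groups overlapped throughout, and 177 of its exon bases (2.82%) are shared with Ldb1 on the opposite strand. Its TNF difference was -0.04 ± 0.21 in RBPJ KO cells (95% interval -0.55 to 0.46) and -0.23 ± 0.21 in WT cells (-0.73 to 0.28) with the block (limma adjusted p = 0.895 and 0.525). The other members of the family were almost unread: Ppargc1a, the PGC-1 alpha gene, had 1 to 3 reads a group, Esrrg had 0 or 1, and Esrrb had 0 in all 8 libraries, so of the ERR and PGC-1 genes Esrra, Ppargc1b and Pprc1 made up nearly all reads.

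The calls among the 10 regulators are set here beside the shares of all genes tested. With TNF in RBPJ KO cells, 1 was higher and 0 were lower in limma, against 3.09% and 2.01% of 12194 genes. With the block, 2 were higher and 0 lower, against 12.2% and 13.7% of genes. In WT cells, 0 passed either way (1 had an unadjusted p under 0.05, DESeq2 called 1 and edgeR 0), against 0.812% of genes higher and 0.369% lower, and with the block 1 was higher, against 5.54% higher and 4.71% lower. Between RBPJ KO and WT cells with TNF, 0 passed (1 had an unadjusted p under 0.05, and edgeR and DESeq2 called 0), against 0.0082% of genes higher and 0% lower. With the block 1 was higher, against 5.53% higher and 3.75% lower. At day 0 no regulator passed, nor had an unadjusted p under 0.05, in limma, edgeR or DESeq2, against 0% of genes without the block and 0.0082% with it. For the difference between the TNF responses 0 passed, against 0% of genes in both fits. Without the block 0 of the 10 had an unadjusted p under 0.05 and edgeR and DESeq2 called 0, and with it 2 had one, Ppargc1b and Esrra, with 0 called in edgeR and 1 in DESeq2.

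**Figure D2:**
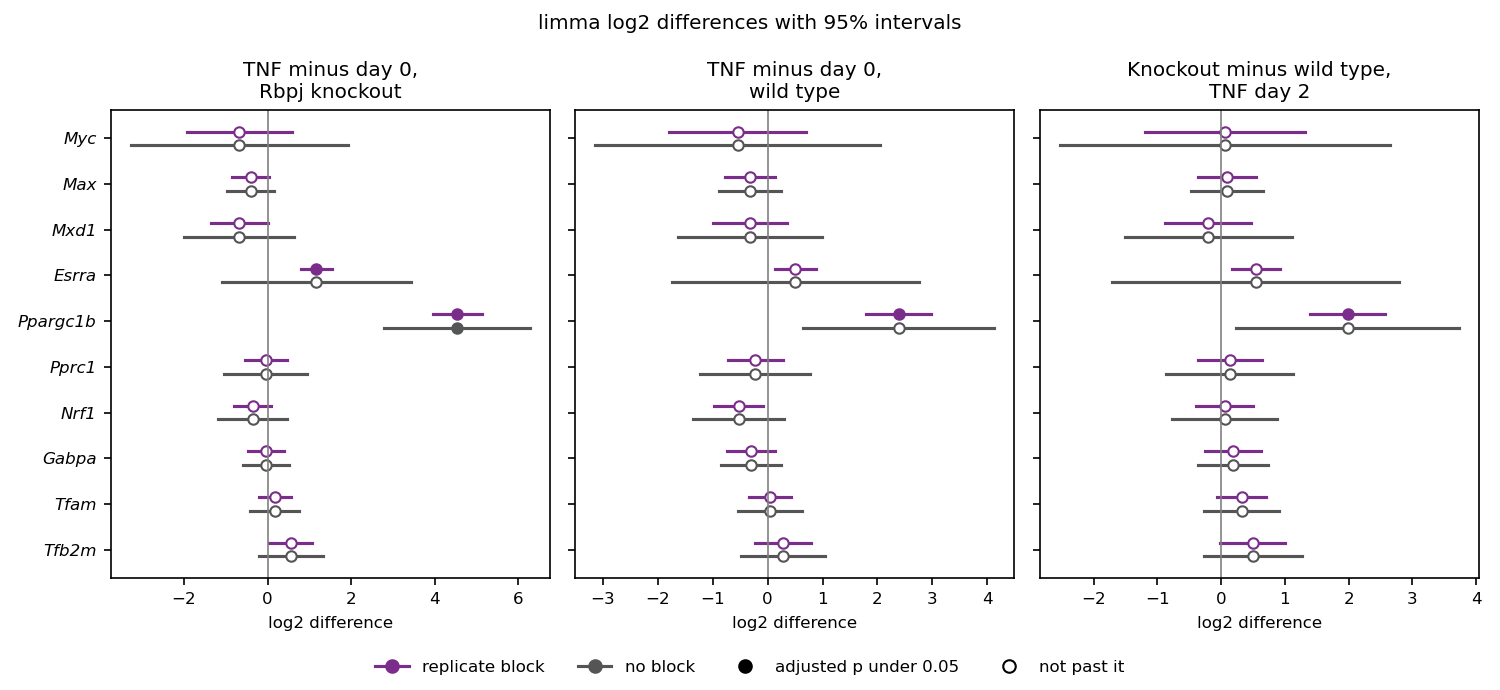
Log2 differences of the 10 regulators from limma with 95% intervals, with the replicate block in purple and without it in grey; filled points have an adjusted p under 0.05. Ppargc1b lies at 4.53 with TNF in RBPJ KO cells, 2.39 in WT cells and 1.98 between RBPJ KO and WT cells with TNF, while the blocked intervals of Myc, Pprc1, Gabpa and Tfam span 0 in each panel.

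Beyond the members, 25 genes that ERR alpha is known to drive were listed, of which 23 were tested. Cpt1b and Pdk4, with at most 0.608 CPM in any library, were not. With TNF in RBPJ KO cells 12 of the 23 rose and 0 fell in limma, against 3.09% and 2.01% of all genes. With the block 22 rose, against 12.2%. The median log2 difference was 1.46 against -0.10 over all genes tested. All 23 were positive in both replicates, and 43% of all genes had a positive mean difference. Left out in turn, RBPJ KO day 0 replicate 2 moved the blocked count to 12, and the other libraries to between 17 and 23. In WT cells 0 of 23 passed without the block (1 at an unadjusted p under 0.05, edgeR 0, DESeq2 1). With the block 8 had an unadjusted p under 0.05 in limma, edgeR called 1 and DESeq2 called 8, all higher. In limma with the block 1 passed and rose, Sdhb, a succinate dehydrogenase subunit, against 5.54% of all genes. That count was 3 without either RBPJ KO TNF library and 0 without either WT TNF library, either RBPJ KO day 0 library or WT day 0 replicate 2. Their median was 0.29 against -0.12 over all genes.

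Idh3a, a subunit of the Krebs cycle enzyme isocitrate dehydrogenase, had 374 and 355 CPM in RBPJ KO cells with TNF and 130.1 and 96.7 CPM in WT cells with TNF, against 92.7 and 61.0 CPM in RBPJ KO cells and 80.5 and 102 CPM in WT cells at day 0. Its TNF difference in RBPJ KO cells was 2.27 ± 0.29 (limma adjusted p = 0.0126). Both RBPJ KO libraries with TNF lay above the other 6, which overlapped. Mdh2, mitochondrial malate dehydrogenase, rose by 2.14 ± 0.43 (limma adjusted p = 0.0418), with 848 and 753 CPM in RBPJ KO cells with TNF against 271 and 121 CPM in RBPJ KO cells at day 0, and Uqcrfs1, the iron-sulfur subunit of respiratory complex III, by 1.94 ± 0.28 (adjusted p = 0.0178). The lone target not called with the block was Vegfa, an angiogenic factor, at 1.24 ± 0.43 (limma adjusted p = 0.0801), which is named after its value was seen. In WT cells Vegfa was at 1.76 ± 0.43 (adjusted p = 0.0527).

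With TNF, 18 of the 23 ERR alpha targets were higher in RBPJ KO than in WT cells with the block, against 5.53% of all genes. Those lower numbered 0, against 3.75%. The median log2 difference was 1.12 against 0.02 over all genes. Without the block 0 passed in limma, although 21 had an unadjusted p under 0.05. edgeR called 0 and DESeq2 called 13 without the block, and 14 and 22 with it. The blocked count was 0 without RBPJ KO TNF replicate 2 or WT TNF replicate 2, and 9 without WT TNF replicate 1, RBPJ KO day 0 replicate 1 or RBPJ KO day 0 replicate 2. Among the highest were Etfdh, which passes electrons from fatty acid oxidation to ubiquinone, at 1.74 ± 0.29, Idh3a at 1.70 ± 0.24 and Uqcrfs1 at 1.32 ± 0.16 (SE with the block, limma adjusted p = 0.0240, 0.0202 and 0.0185). Of 20 of the targets with a promoter in the table, 2 held AAGGTCA, 6 held CATGCGC and 8 held CGGAAG, the ETS core bound by GABPA. These letters were in 4.72%, 3.91% and 16.9% of all promoters. A target counted if any of its promoters held the letters, while the shares are over single promoters, so the 2 are not like measures. For the difference between the TNF responses, 0 of the 23 passed in limma with or without the block, against 0% of all genes. In limma 14 had an unadjusted p under 0.05 without the block and 21 with it. edgeR called 0 in both fits, and DESeq2 called 1 without the block and 15 with it. The summed osteoclast markers were also highest in RBPJ KO cells with TNF and next in WT cells with TNF. Their part in the values of the ERR alpha targets was not tested.

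**Figure D3:**
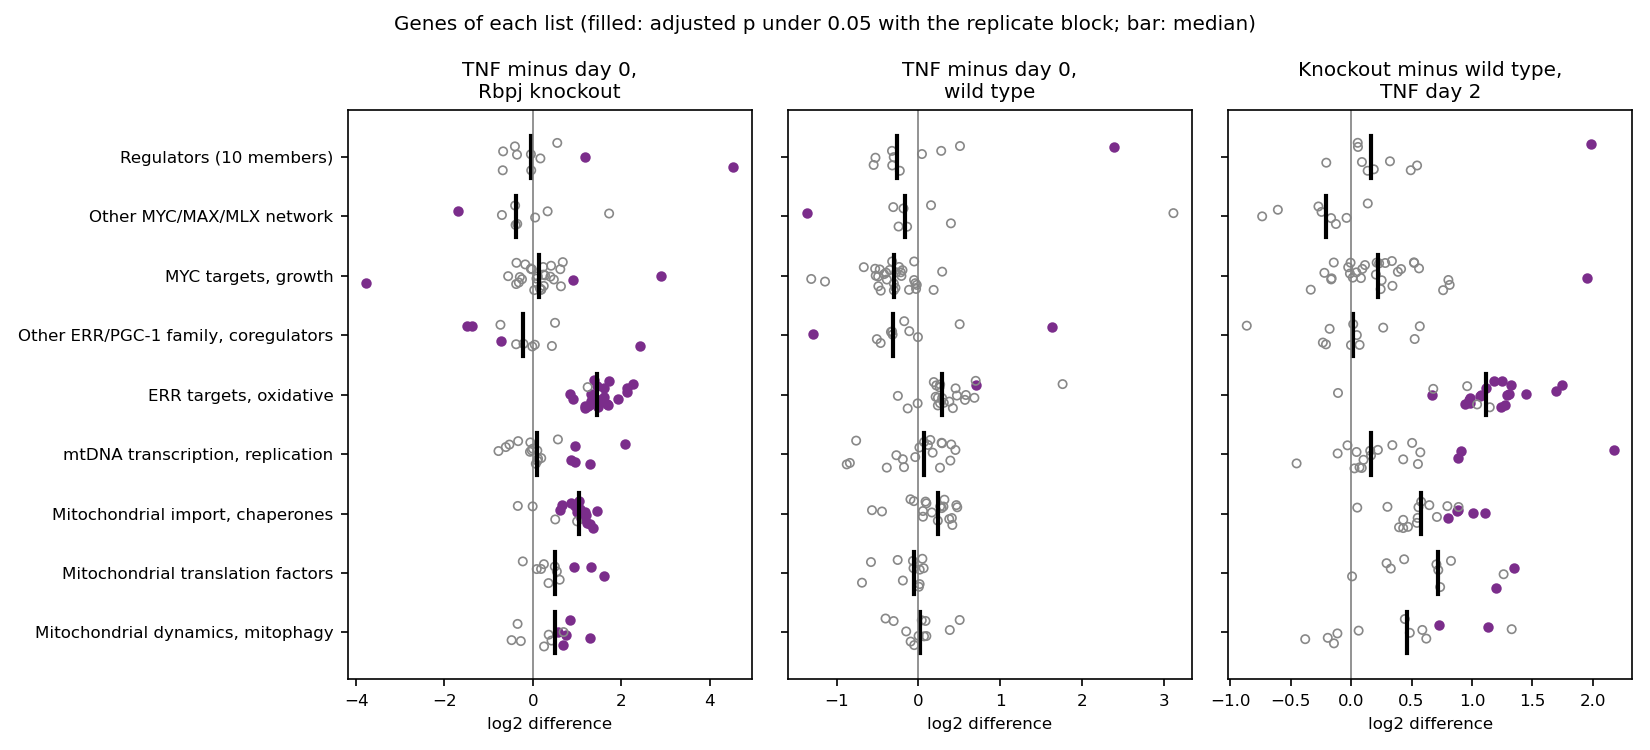
Log2 differences of the genes of each list in 3 comparisons, 1 point a gene; filled points have a limma adjusted p under 0.05 with the replicate block, and bars are medians. The 23 tested ERR alpha targets have medians of 1.46 with TNF in RBPJ KO cells, 0.29 with TNF in WT cells and 1.12 between RBPJ KO and WT cells with TNF.

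Of 11 tested genes of the ERR and PGC-1 family and their coregulators, 0 rose and 1 fell with TNF in RBPJ KO cells without the block. Of all genes, 3.09% rose and 2.01% fell. With the block 1 rose and 3 fell, against 12.2% and 13.7% of all genes. The blocked count of 3 was 1 without RBPJ KO day 0 replicate 2. The one called in both was Ncoa3, a coactivator of nuclear receptors, which fell by 1.49 ± 0.23 (limma adjusted p = 0.0206), with 135 and 106 CPM with TNF against 360.4 and 317 CPM at day 0. Perm1, a muscle regulator known in the mouse as a target of PGC-1 and ERR, was higher with TNF in RBPJ KO cells by 2.44 ± 0.23 (limma adjusted p = 0.00158) and in WT cells by 1.63 ± 0.23 (adjusted p = 0.01), both with the block. In WT cells the call was lost without WT TNF replicate 1, WT TNF replicate 2 or WT day 0 replicate 2. Ncoa1, a coactivator, was lower in RBPJ KO cells by the blocked fit, at -0.71 ± 0.14 (adjusted p = 0.0161). Perm1 in RBPJ KO cells and Ncoa1 are named because they are part of the count, after their values were seen.

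Nrf1, at chr6:30047988-30153458 on the plus strand, encodes a factor of GC-rich promoters of respiratory genes. It had 28.3 and 21.5 CPM in RBPJ KO cells with TNF and 30.7 and 18.4 CPM in WT cells with TNF, against 36.4 and 27.8 CPM in RBPJ KO cells and 36.8 and 32.1 CPM in WT cells at day 0. In WT cells the groups did not overlap, and Nrf1 was lower with TNF in both replicates. The difference was -0.52 ± 0.18 in WT cells (limma adjusted p = 0.122 with the block) and -0.36 ± 0.18 in RBPJ KO cells (adjusted p = 0.195).

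Gabpa, at chr16:84834925-84863779 on the plus strand, encodes the DNA-binding subunit of GABP, also called NRF2 in this context. It had 98.1 and 95.5 CPM in RBPJ KO cells with TNF and 96.2 and 74.9 CPM in WT cells with TNF, against 93.0 and 106 CPM in RBPJ KO cells and 97.8 and 112 CPM in WT cells at day 0. Both WT libraries with TNF lay below both at day 0, while the RBPJ KO groups overlapped. The TNF difference in RBPJ KO cells was -0.04 ± 0.18 (95% interval -0.47 to 0.40, limma adjusted p = 0.897 with the block), against -0.30 ± 0.18 in WT cells (adjusted p = 0.329). Atp5j on the opposite strand shares 397 bases, or 6.98%, of the exons of Gabpa. Of 9 tested partners of NRF1 and GABPA, 0 passed with TNF in RBPJ KO cells without the block (1 at an unadjusted p under 0.05, edgeR 0, DESeq2 0). In the blocked fit 2 were lower, against 13.7% of all genes: Creb1, a cAMP-responsive factor, at -0.65 ± 0.13 and Gabpb2, a partner subunit of GABPA, at -0.61 ± 0.17 (limma adjusted p = 0.0168 and 0.0431). Both calls were lost when any 1 of the 4 RBPJ KO libraries was left out. In WT cells Nfe2l2, the oxidative stress factor that is also known as NRF2 but is unrelated to GABPA, was higher by 1.21 ± 0.24 with the block (adjusted p = 0.0296), a call lost without WT TNF replicate 2, either RBPJ KO day 0 library or WT day 0 replicate 2.

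Tfam, at chr10:71225464-71238280 on the minus strand, encodes the protein that packs mitochondrial DNA and opens its transcription. It had 46.2 and 46.2 CPM in RBPJ KO cells with TNF and 35.8 and 38.0 CPM in WT cells with TNF, against 37.7 and 44.6 CPM in RBPJ KO cells and 31.9 and 40.1 CPM in WT cells at day 0. Both RBPJ KO libraries with TNF were the highest of the 8, by a small margin. The difference with TNF was 0.17 ± 0.16 in RBPJ KO cells (limma adjusted p = 0.462 with the block), and between RBPJ KO and WT cells with TNF it was 0.32 ± 0.16 (95% interval -0.06 to 0.70, adjusted p = 0.248).

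Tfb2m, at chr1:179528055-179546267 on the minus strand, encodes the mitochondrial transcription initiation factor. It had 11.9 and 11.7 CPM in RBPJ KO cells with TNF and 9.68 and 6.95 CPM in WT cells with TNF, against 8.33 and 7.42 CPM in RBPJ KO cells and 6.96 and 6.42 CPM in WT cells at day 0. As for Tfam, both RBPJ KO libraries with TNF were the highest of the 8. The TNF difference in RBPJ KO cells was 0.55 ± 0.21 with the block (95% interval 0.04 to 1.07, limma adjusted p = 0.105), and it passed the threshold in DESeq2 with the block (0.67, adjusted p = 0.0322). Between RBPJ KO and WT cells with TNF it was 0.49 ± 0.21 (limma adjusted p = 0.198).

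The promoters of Tfam (chr10:71237995-71238294) and Tfb2m (chr1:179546227-179546526), both GRCm38.p6, minus strand and from RefSeq, are shown because their products act together on mitochondrial DNA and both hold the GABPA core CGGAAG. Capitals mark CGGAAG in either orientation in both, the RBP-J letters on the other strand in Tfam, and the NRF1 core in Tfb2m.
Tfam: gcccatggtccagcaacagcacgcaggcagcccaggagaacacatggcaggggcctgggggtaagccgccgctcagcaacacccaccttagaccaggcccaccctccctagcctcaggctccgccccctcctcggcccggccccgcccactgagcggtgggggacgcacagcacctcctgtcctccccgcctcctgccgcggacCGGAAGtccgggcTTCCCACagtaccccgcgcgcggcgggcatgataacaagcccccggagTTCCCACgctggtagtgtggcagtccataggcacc
Tfb2m: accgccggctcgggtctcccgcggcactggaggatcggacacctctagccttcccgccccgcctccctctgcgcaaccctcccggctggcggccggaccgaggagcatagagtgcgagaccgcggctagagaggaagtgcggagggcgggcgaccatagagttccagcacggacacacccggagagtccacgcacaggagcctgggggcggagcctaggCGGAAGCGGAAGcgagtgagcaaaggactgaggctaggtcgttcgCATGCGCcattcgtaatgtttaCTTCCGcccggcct
The letters CGGAAG were in 16.9% of all promoters, and among the 8 members with a promoter in those of Gabpa, Tfam and Tfb2m. Tfb2m held CGGAAG 3 times, at bases 220 to 225, 226 to 231 and 287 to 292, and CATGCGC once, at 265 to 271. Tfam held CGGAAG once, at 205 to 210, and the RBP-J letters at 218 to 224 and 266 to 272. Neither gene was called at day 0 between RBPJ KO and WT cells, where Tfam differed by 0.19 ± 0.16 and Tfb2m by 0.22 ± 0.21 on the log2 scale with the block (limma adjusted p = 0.971 and 0.988).

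Of 19 tested genes for transcription, replication and upkeep of mitochondrial DNA and its RNA, 1 rose with TNF in RBPJ KO cells without the block. With the block 5 rose. Of all genes, 3.09% rose without the block and 12.2% with it. The median log2 difference was 0.10, against -0.10 over all genes tested. The one called in both was Lrpprc, which stabilises mitochondrial messenger RNA, at 1.30 ± 0.21 (limma adjusted p = 0.0248), with 236 and 229 CPM with TNF against 100.3 and 88.6 CPM at day 0. The other 4, named after their values were seen, were Mterf2, a mitochondrial transcription factor, at 2.09 ± 0.36, the nuclease gene Endog at 0.96 ± 0.21, the protease gene Lonp1 at 0.95 ± 0.16 and the helicase gene Peo1 (Twinkle) at 0.87 ± 0.21. Polrmt, the mitochondrial RNA polymerase, was at 0.57 ± 0.82 without the block (adjusted p = 0.811, and 0.0507 with it), and Tfb1m, the relative of Tfb2m that methylates ribosomal RNA, at 0.11 ± 0.34 (adjusted p = 0.929). These 2 are named for their closeness to Tfb2m, after their values were seen. The blocked count fell to 1 without RBPJ KO day 0 replicate 2, to 2 without RBPJ KO day 0 replicate 1 or RBPJ KO TNF replicate 2, and to 3 without RBPJ KO TNF replicate 1.

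Protein import showed the second highest median of the mitochondrial lists, 1.05 with TNF in RBPJ KO cells. Of 19 genes of import and its chaperones, 1 rose without the block and 15 with it, against 3.09% and 12.2% of all genes. In both fits 0 fell, against 2.01% and 13.7%. The one called in both was Hspa9, the matrix chaperone mortalin, at 1.18 ± 0.23 (limma adjusted p = 0.0414), with 813 and 715 CPM with TNF against 351 and 322 CPM at day 0. The blocked count was 1 without RBPJ KO day 0 replicate 2, 6 without RBPJ KO day 0 replicate 1 and 9 without RBPJ KO TNF replicate 2. In WT cells 0 passed in either fit (0 at an unadjusted p under 0.05 without the block and 3 with it, edgeR 0 in both, DESeq2 0 without the block and 2 with it), and the median was 0.24. With TNF, 5 of the 19 were higher in RBPJ KO than in WT cells with the block, against 5.53% of all genes. Without the block 0 were (6 at an unadjusted p under 0.05, edgeR 0, DESeq2 1). In the blocked fit the 5 were led by Timm44, an import motor subunit, at 1.11 ± 0.17 (limma adjusted p = 0.0220). The count was 0 without RBPJ KO TNF replicate 2 or WT TNF replicate 2, 1 without RBPJ KO TNF replicate 1 or either RBPJ KO day 0 library, and 2 without WT TNF replicate 1.

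Of 11 factors of mitochondrial translation, 1 rose with TNF in RBPJ KO cells without the block, against 3.09% of all genes. It was the elongation factor gene Gfm1, at 1.61 ± 0.29 (limma adjusted p = 0.0310). With the block 3 rose, against 12.2% of all genes. The other 2, named after their values were seen, were the elongation factor genes Tufm at 1.31 ± 0.20 and Tsfm at 0.93 ± 0.19. Of 12 genes of mitochondrial fusion, fission and removal, 0 passed without the block (3 at an unadjusted p under 0.05, edgeR 1, DESeq2 3) and 5 rose with it, against the same share. They were the fusion genes Mfn2 at 1.30 ± 0.18, Opa1 at 0.84 ± 0.15 and Mfn1 at 0.68 ± 0.15, the fission gene Mff at 0.76 ± 0.16 and the protease gene Oma1 at 0.57 ± 0.17 (limma adjusted p = 0.00441 to 0.0489), the last of them named after its value was seen. Without RBPJ KO day 0 replicate 2 the blocked counts were 1 of translation and 0 of dynamics. Without RBPJ KO day 0 replicate 1 or RBPJ KO TNF replicate 2 the dynamics count was 1, and without RBPJ KO TNF replicate 1 it was 3. Of 12 genes of energy sensing, 0 passed without the block (1 at an unadjusted p under 0.05, edgeR 0, DESeq2 0) and 2 rose with it, against 12.2% of all genes, the AMP-activated kinase subunits Prkaa2 at 1.11 ± 0.30 and Prkag2 at 1.09 ± 0.28 (adjusted p = 0.0394 and 0.0328), and 0 or 1 did without any 1 library.

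With TNF, genes of these lists were also called between RBPJ KO and WT cells in the blocked fit. Of the genes for mitochondrial DNA and its RNA, 3 of 19 were higher in RBPJ KO cells: Mterf2 by 2.17 ± 0.36, Lrpprc by 0.91 ± 0.16 and Lonp1 by 0.88 ± 0.16 (limma adjusted p = 0.0244, 0.0274 and 0.0279), against 5.53% of all genes. Of the translation factors 2 of 11 were higher, Gfm1 by 1.34 ± 0.19 and Tufm by 1.20 ± 0.20, and of the fusion and fission genes 2 of 12, Mfn2 by 1.14 ± 0.18 and Opa1 by 0.73 ± 0.15 (adjusted p = 0.0202 to 0.0360). Without the block 0 of each passed, while 2, 4 and 3 had an unadjusted p under 0.05, edgeR called 0 of each, and DESeq2 called 2, 1 and 1. With the block, 0 of each were called without RBPJ KO TNF replicate 2 or WT TNF replicate 2. The first count was also 0 without either RBPJ KO day 0 library and 1 without WT TNF replicate 1, the translation count was 1 without either RBPJ KO day 0 library, and the fusion and fission count was 0 without WT TNF replicate 1 and 1 without any 1 of the other 5 libraries. In Tfam and Tfb2m themselves RBPJ KO cells with TNF were the highest group by a smaller margin, as given above.

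Myc lies at chr15:61985391-61990374 on the plus strand. It had 88.7 and 13.6 CPM in RBPJ KO cells with TNF and 79.2 and 14.0 CPM in WT cells with TNF, against 85.0 and 36.7 CPM in RBPJ KO cells and 58.1 and 41.7 CPM in WT cells at day 0. The replicate 2 libraries with TNF were the lowest of the 8 in both genotypes, while the replicate 1 libraries with TNF were among the 3 highest. Within replicate 1 the TNF difference was 0.06 in RBPJ KO cells and 0.44 in WT cells, and within replicate 2 it was -1.41 in RBPJ KO cells and -1.54 in WT cells. In each replicate the 2 genotypes had the same sign, with a value near 0 in RBPJ KO cells of replicate 1.

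The replicate-by-TNF term for Myc, which compares the response of replicate 2 with that of replicate 1 over both genotypes, was -1.72 ± 0.30 (limma adjusted p = 0.221). It was added after these values were seen. Only 3 genes, or 0.0246% of those tested, passed the threshold for that term. The sign pattern itself, positive in replicate 1 and negative in replicate 2 in both genotypes, was held by 716 genes (5.87%), and the reverse by 150 (1.23%). Averaged over the replicates, the TNF difference of Myc was -0.67 ± 0.52 in RBPJ KO cells (95% interval -1.93 to 0.58, limma adjusted p = 0.377 with the block) and -0.55 ± 0.52 in WT cells (-1.80 to 0.71, adjusted p = 0.541). RBPJ KO and WT cells with TNF differed by 0.06 ± 0.52 (-1.20 to 1.31, adjusted p = 0.957), and at day 0 by 0.18 ± 0.52 (-1.07 to 1.44, adjusted p = 0.998).

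**Figure D4:**
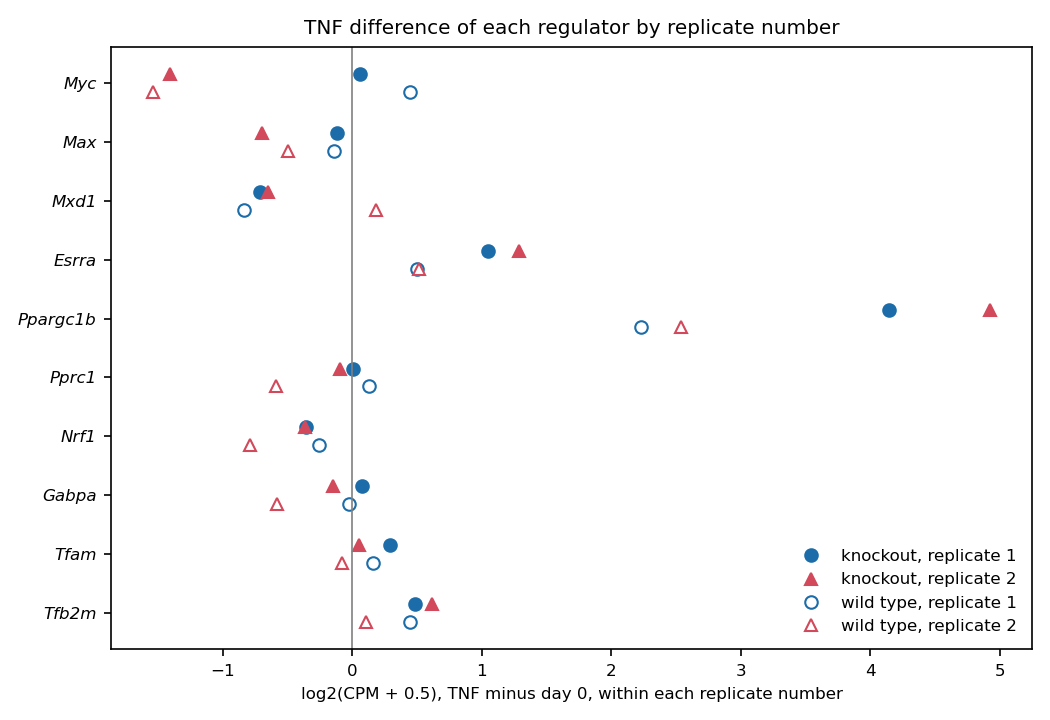
TNF minus day 0 difference of each regulator on the log2(CPM + 0.5) scale within each replicate number; filled symbols are RBPJ KO and open symbols WT cells, circles replicate 1 and triangles replicate 2. Myc lies at 0.06 and 0.44 in replicate 1 and at -1.41 and -1.54 in replicate 2 (RBPJ KO and WT cells), and Ppargc1b lies at 2.23 or above in all 4.

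Max, at chr12:76937269-76962201 on the minus strand, encodes the obligate partner of MYC. It had 96.4 and 76.8 CPM in RBPJ KO cells with TNF and 86.1 and 75.8 CPM in WT cells with TNF, against 104.5 and 125 CPM in RBPJ KO cells and 95.1 and 107 CPM in WT cells at day 0. In each genotype both libraries with TNF lay below both day 0 libraries. The differences were -0.41 ± 0.19 in RBPJ KO cells and -0.32 ± 0.19 in WT cells with the block (limma adjusted p = 0.156 and 0.317).

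Mxd1, at chr6:86647042-86669161 on the minus strand, encodes MAD1, which competes with MYC for MAX. It had 9.03 and 18.5 CPM in RBPJ KO cells with TNF and 10.1 and 22.1 CPM in WT cells with TNF, against 15.1 and 29.3 CPM in RBPJ KO cells and 18.4 and 19.4 CPM in WT cells at day 0. The groups overlapped, since replicate 2 was higher than replicate 1 in all 4, but within each replicate Mxd1 was lower with TNF in RBPJ KO cells, by -0.71 and -0.65. The difference in RBPJ KO cells was -0.68 ± 0.28 with the block (limma adjusted p = 0.123), and it passed when WT day 0 replicate 1 (0.0482) or 2 (0.0485) was left out. In WT cells it was -0.32 ± 0.28 (adjusted p = 0.504), with -0.83 and 0.19 within the replicates.

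Around these genes, 8 other members of the MYC, MAX and MLX network were tested. With TNF in RBPJ KO cells 0 passed without the block (0 at an unadjusted p under 0.05 in limma, edgeR 0, DESeq2 0), and 1 was lower with it, against 13.7% of all genes: Mxd3, a relative of Mxd1 found in dividing cells, at -1.69 ± 0.31 (limma adjusted p = 0.0118). This call was lost without RBPJ KO TNF replicate 1 or either RBPJ KO day 0 library. In WT cells 0 of the 8 passed without the block (1 at an unadjusted p under 0.05, edgeR 0, DESeq2 1 higher), and Mxd3 was lower with it at -1.37 ± 0.31 (limma adjusted p = 0.0435), a call lost without any 1 library that was not an RBPJ KO TNF library. Of 8 genes for turnover of the MYC protein, 0 passed without the block (1 at an unadjusted p under 0.05, edgeR 1, DESeq2 2). With the block Skp2, a ubiquitin ligase subunit of the cell cycle, was lower at -1.40 ± 0.25, while the ligase genes Fbxo32 and Huwe1 were higher at 0.96 ± 0.26 and 0.54 ± 0.15 (limma adjusted p = 0.0104, 0.0373 and 0.0450), against 13.7% of all genes lower and 12.2% higher. The call of Skp2 was lost without RBPJ KO TNF replicate 2 or either RBPJ KO day 0 library, and the count of 2 was 0 without any 1 RBPJ KO or WT TNF library and 1 without either WT day 0 library. Mycn had 1 to 7 reads a group.

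Of 30 genes known as MYC targets in ribosome production and growth, with TNF in RBPJ KO cells 1 rose and 1 fell without the block. Of all genes, 3.09% rose and 2.01% fell. With the block 2 rose and 1 fell, against 12.2% and 13.7% of all genes. The median log2 difference was 0.13, against -0.10 over all genes tested. The additional one, Rrp12 of ribosome assembly, named after its value was seen, was at 0.91 ± 0.23 (limma adjusted p = 0.0324) and the count of 2 was 1 when any RBPJ KO or WT TNF library was left out. The one that rose in both was Tfrc, the transferrin receptor, at 2.90 ± 0.44 (limma adjusted p = 0.0206), with 1882 and 2485 CPM with TNF against 431 and 194 CPM at day 0. The one that fell was Ccnd2, cyclin D2, at -3.77 ± 0.57 (adjusted p = 0.0204), with 8.93 and 2.79 CPM with TNF against 82.2 and 69.3 CPM at day 0. Neither makes ribosomes: Tfrc takes up iron and Ccnd2 drives entry into the cell cycle. In WT cells 0 passed in either fit (0 at an unadjusted p under 0.05 without the block and 4 with it, edgeR 0 in both, DESeq2 0 without the block and 2 with it), with a median of -0.30 against -0.12 over all genes. By replicate number, the median of the 30 in WT cells was 0.21 in replicate 1 and -0.73 in replicate 2, and in RBPJ KO cells 0.38 in replicate 1 and -0.003 in replicate 2.

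The 22 cell cycle genes listed summed to 558 to 2352 CPM in RBPJ KO cells with TNF and 1025 to 2742 CPM in WT cells with TNF, against 2099 to 4375 CPM in RBPJ KO cells and 4148 to 4505 CPM in WT cells at day 0. The ranges of the RBPJ KO groups overlapped and those of the WT groups did not. All 22 had a negative TNF difference in RBPJ KO cells (median -1.19), and the median in WT cells was -1.35. The difference between the TNF responses had a median of 0.08. In RBPJ KO cells 0 passed without the block (3 at an unadjusted p under 0.05, edgeR 0, DESeq2 3). In the blocked fit 8 were lower there, against 13.7% of all genes. With the block, 12 had a limma unadjusted p under 0.05 in RBPJ KO cells and 17 in WT cells. DESeq2 with the block called 11 lower in RBPJ KO cells and 15 in WT cells. In WT cells 0 passed without the block (2 at an unadjusted p under 0.05, edgeR 0, DESeq2 1) and 2 were lower with it, Pcna and Tyms, against 4.71% of all genes. That count was 17 without WT day 0 replicate 1, 6 and 5 without RBPJ KO TNF replicates 1 and 2, 1 without either RBPJ KO day 0 library or WT day 0 replicate 2, and 0 without WT TNF replicate 2. The largest differences among the 8 in RBPJ KO cells were those of the helicase subunit genes Mcm5 at -1.90 ± 0.51, Mcm2 at -1.87 ± 0.42 and Mcm3 at -1.84 ± 0.34, and of Pcna, the sliding clamp of DNA replication, at -1.86 ± 0.20. Left out in turn, RBPJ KO TNF replicate 2 or RBPJ KO day 0 replicate 2 moved the RBPJ KO count of 8 to 1, RBPJ KO day 0 replicate 1 to 3, either WT TNF library to 5 and either WT day 0 library to 13. The part of proliferation in the values of Myc, Mxd3, Skp2 and Ccnd2 was not tested.

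Per length, as CPM per kb of merged exons, the order of the regulators changed with TNF. In WT cells at day 0 Max was highest at 28.1 ± 2.38 (SD, n = 2), with no overlap with Gabpa at 18.5 ± 1.79 and Myc at 18.4 ± 4.26, whose ranges overlapped. Ppargc1b was lowest, at 1.03 ± 0.717, with both libraries below those of Tfb2m at 2.39 ± 0.137. In RBPJ KO cells with TNF Ppargc1b stood second of the 10 at 22.1 ± 8.29, behind Max at 24.1 ± 3.85 and ahead of Esrra at 19.2 ± 14.0, Myc at 18.8 ± 19.6 and Gabpa at 17.02 ± 0.331. Each of these 5 overlapped its neighbour in the order. Pprc1 at 11.6 ± 4.36 and Tfam at 10.4 ± 0.0133 followed and overlapped each other, then Tfb2m at 4.19 ± 0.0546, Nrf1 at 2.42 ± 0.467 and Mxd1 at 1.94 ± 0.943. The ranges of Nrf1 (2.09 to 2.75) and Mxd1 (1.28 to 2.61) overlapped. In WT cells with TNF Ppargc1b was seventh at 5.65 ± 2.85, and in RBPJ KO cells at day 0 last at 0.936 ± 0.741.

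By the distance between centred log2(CPM + 0.5) profiles over the 8 libraries, the gene most like Esrra was Ndufs7, a subunit of respiratory complex I, at a root-mean-square distance of 0.12, followed by Atp5d, an ATP synthase subunit, at 0.18 and Eif4ebp1, a repressor of cap-dependent translation, at 0.19. The median over all genes was 1.02. Ndufs7 had 136 and 45.2 CPM in RBPJ KO cells with TNF and 85.4 and 25.3 CPM in WT cells with TNF, against 70.2 and 18.3 CPM in RBPJ KO cells and 65.2 and 23.6 CPM in WT cells at day 0. Ndufs7 was picked by this distance, so its likeness to Esrra in the replicate gap and the order of the groups follows from the choice. The genes most like Ppargc1b were Srgap3, a GTPase-activating protein, at 0.30, Bcar1, an adaptor of integrin signalling, at 0.33 and Matk, a tyrosine kinase, at 0.34, against a median of 2.03. Srgap3 had 154 and 149 CPM in RBPJ KO cells with TNF and 50.04 and 17.7 CPM in WT cells with TNF, against 8.58 and 4.26 CPM in RBPJ KO cells and 10.4 and 4.01 CPM in WT cells at day 0. Likeness is a description over these 8 libraries, which share the replicate difference.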

How the data were processed

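Libraries were made from poly-A RNA of 8 macrophage samples, per the labels' protocols. The deposited unit is CPM. The authors used fastp, HISAT2, HTSeq and edgeR with genome build mm10, per the submitters' processing notes, and their versions, settings, gene annotation and strandedness are not given in the sources used here. Every CPM value lay within 0.01 of a whole number of reads (100% of values), which let the reads be recovered, 9855859 to 35653203 a library. Libraries of 1 group differed beyond sampling noise.

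The 12194 genes (49.9% of the table) that reached 1 CPM in 2 or more libraries were fitted in limma 3.58.1 under R 4.3.3 (2-sided, eBayes with a mean-variance trend after lmFit) as log2(CPM + 0.5), with group as the lone term and 4 residual degrees of freedom. This scale understates the change of low genes. Log2 differences are given ± moderated SE, and levels ± SD. P-values were adjusted by Benjamini-Hochberg over all genes of a contrast, for 5 contrasts, and called at 0.05. As alternatives, recovered reads were fitted in edgeR 4.0.16 (quasi-likelihood) and DESeq2 1.42.0, and other pseudocounts, filters and scalings and the omission of each library were tried. The fits were tried on simulated data with an additive shift between the replicates and changes in RBPJ KO cells with TNF only. All genes were given the same dispersion, and the response to TNF did not differ between the replicates. The simulation thus cannot say how the fits treat genes whose response differs between the replicates.

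Replicate numbers were taken to pair libraries. The series states 2 independent experiments, the gap between replicates correlated in all 6 pairs of groups (Pearson r 0.577 to 0.805 over genes, which are not independent), and principal component 2 (32.9% of variance) split the numbers. No label ties a number to an experiment or a library to an animal, and p-values reflect only the spread among these libraries. The blocked fit left 3 residual degrees of freedom.

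The members, gene lists and tests were chosen with earlier results of these data known. Named genes were all members, Rbpj, up to 4 genes of each list and contrast with the largest difference among those called without the block, or with it where none was, and the 3 genes nearest to each called member. Positions and exon lengths are from GENCODE M21, promoters from RefSeq (GRCm38.p6). Some genes that the rule names are not reported here.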

Additional observations from a re-analysis of the deposited data

Results flagged for a closer look

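Ppargc1b was higher in RBPJ KO than in WT cells in both replicates with TNF and lower in both at day 0, where the gap was small (-0.07 and -0.27 on the log2 scale). The difference between the genotype effects was 2.15, with limma adjusted p = 0.964 without the replicate block and 0.104 with it.

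Gabpa showed the same signs, with log2 differences of 0.03 and 0.35 with TNF and of -0.07 and -0.08 at day 0. The difference was 0.26, with limma adjusted p = 1 without the block and 0.666 with it. With 2 libraries a group, opposite signs of this kind can arise between 2 genotypes that do not differ.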

How the results depend on the processing

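The number of regulators called depended on the replicate block. With TNF in RBPJ KO cells it was 1, against 2 with the block, with the block and either scaling, and in edgeR with the block, 3 in DESeq2 with the block, 0 with only the 4 libraries of the comparison, and 0 to 3 when a library was left out. With TNF in WT cells it was 0, against 1 with the block, with the block and either scaling, in edgeR with the block and in DESeq2, 2 in DESeq2 with the block, and 0 to 1 without a library. Between RBPJ KO and WT cells with TNF it was 0, against 1 with the block in limma (either scaling included), edgeR and DESeq2, and 0 to 1 without a library. The difference between the responses was called for 0, against 1 in DESeq2 with the block, and 0 to 1 without a library. Over all 12194 genes the calls numbered 622 with TNF in RBPJ KO cells, against 3162 with the block, 71 with only the 4 libraries and 1701 in DESeq2. With TNF in WT cells they numbered 144, against 1250, 28 and 874 under the same settings and 60 in edgeR. Between RBPJ KO and WT cells with TNF they numbered 1, against 1131 with the block and 593 in DESeq2 (0 in edgeR, 13 with no filter on low values). At day 0 they numbered 0 (164 at an unadjusted p under 0.05), against 1 with the block and 24 in DESeq2, and for the difference between the responses 0 (689), against 79 in DESeq2 and 986 in DESeq2 with the block. The cause was not tested. Of 1490 values of single regulators under the alternatives, 1331 kept sign and side of the threshold, 44 gained and 4 lost a call, and 111 changed sign without a call in either. In the main fit the lone call was that of Ppargc1b with TNF in RBPJ KO cells. All 4 lost calls were therefore of this result. ERR alpha targets that rose in RBPJ KO cells numbered 0 with only the 4 libraries, although 22 then had an unadjusted p under 0.05. Median-ratio scaling put the median of all genes with TNF in WT cells at -0.01, against -0.12 as deposited, and the median of the regulators with TNF in RBPJ KO cells at 0.03, against -0.04. The blocked fit rests on 3 residual degrees of freedom and 2 libraries a group, and Ppargc1b on 37 to 168 reads a library at day 0. The scalings with the block, the replicate terms and the list counts without each library were chosen after seeing the data.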
